A study of Homo sapiens with 2 samples.

Results

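Reference genes are the transcripts against which quantitative PCR measurements are divided, on the premise that their level does not change with the treatment. The 8 members described here are PPIA, HPRT1, TBP, GUSB, YWHAZ, IPO8, POLR2A and PPIB, taken by gene name from a table of 58220 genes that reduces to 56558 symbols. Each has 1 row in that table. They were measured in Huh7, an established human hepatocellular carcinoma cell line, in 1 library from cells labelled as Neil3 KD (knockdown of NEIL3, a DNA glycosylase of base excision repair) and 1 library from shGFP cells, which serve as the control and whose name points to a hairpin against GFP, a protein these cells lack. The labels do not say how the knockdown was made or whether the cells are a pool or a clone. PPIA was selected on its FPKM ratio between these libraries, and the other members were set beside it as common reference genes with their ratios known, so its values and those of the other members are a description without a test. With 1 library per group no difference could be set against replicate error, and "higher" and "lower" describe these libraries.

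The members come from unrelated pathways, which is why they are used together. PPIA and PPIB are cyclophilins, enzymes that turn proline bonds during protein folding, in the cytosol and in the endoplasmic reticulum respectively, and PPIA is the target of the drug cyclosporin A. HPRT1 salvages purine bases. GUSB is a lysosomal glycosidase, YWHAZ a 14-3-3 adaptor that binds phosphorylated proteins, and IPO8 a carrier for import into the nucleus. TBP binds the TATA box and POLR2A is the catalytic subunit of RNA polymerase II, so both are needed for messenger RNA synthesis in every cell.

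Levels are in FPKM (fragment counts divided by transcript length and by the library's mapped total), which allows levels of different genes to be compared. NEIL3 itself stood at 5.34 FPKM in shGFP and 2.84 FPKM in NEIL3 KD, a ratio of 0.532. Of 8 hepatocyte markers, 3 lay 1.5-fold or more higher in NEIL3 KD and 0 that far lower, with a median log2 ratio of 0.42. AFP (alpha-fetoprotein) stood at 12.3 and 59.8 FPKM, TTR (transthyretin) at 1.65 and 7.81 FPKM and SERPINA1 at 226 and 367 FPKM, while ALB (albumin), which holds most of their summed level, was the lone marker with a ratio below 1, at 1346 and 1272 FPKM. The part of these differences in the members' values was not tested. The leukocyte marker PTPRC stood at 0.149 and 0.224 FPKM in shGFP and NEIL3 KD, but CD14 at 2.57 and 5.33 FPKM. The endothelial marker CDH5 stood at 0.205 and 0.276 FPKM, but PECAM1 at 2.90 and 3.60 FPKM. All 7 fibroblast and stellate cell markers reached 1 FPKM, among them PDGFRB at 3.32 and 9.19 FPKM, a plain ratio of 2.77. The summed level of the hepatocyte markers was 2074 FPKM in shGFP and 2356 FPKM in NEIL3 KD, against 3.803 and 4.57 FPKM for 5 endothelial, 3.42 and 6.03 FPKM for 5 leukocyte and 43.5 and 49.2 FPKM for 7 fibroblast and stellate cell markers. None of these markers was at 0. Mitochondrial transcripts held 23.1% of all FPKM in shGFP and 26.3% in the knockdown library. Counts of genes apart by 1.5-fold use log2 ratios of FPKM with a pseudocount of 1, over the 14209 symbols at 1 FPKM or more in either library.

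PPIA was the member that stood apart. It was at 640.6 FPKM in shGFP and 1256 FPKM in NEIL3 KD, 1.96-fold higher, with a log2 ratio of 0.97 on the log2(FPKM + 1) scale. It held rank 78 of all symbols by level in the control and rank 27 in the knockdown library. The gene (ENSG00000196262) lies at chr7:44796680-44824564 on the plus strand of GRCh38, with no other row of the table overlapping it. A log2 ratio as high as that of PPIA was shared by 203 of 14209 symbols (1.43%), and by 5 of the 285 symbols with a mean of 200 FPKM or more. In FPKM, PPIA gained 615, and 13 other symbols gained more, led by mitochondrially encoded transcripts (MT-ATP8 from 26518 to 34894 FPKM). The authors' deposited table gives PPIA a p of 0.0296 and a q of 0.601 in a comparison of the reads of these libraries, not of the conditions.

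PPIB, the other cyclophilin among the members, stood at 243.4 FPKM in shGFP and 309.3 FPKM in NEIL3 KD, a plain ratio of 1.27. Its log2 ratio of 0.34 lay at percentile 87.7 of all symbols. PPIB (chr15:64155812-64163205, minus strand) overlaps SNX22 on the opposite strand, which stood far below it. HPRT1, for hypoxanthine salvage, stood at 51.6 and 52.3 FPKM in shGFP and NEIL3 KD, a plain ratio of 1.01. It lies at chrX:134460153-134520513 on the plus strand. GUSB, the glycosidase, stood at 33.3 and 32.9 FPKM, a plain ratio of 0.987, from chr7:65960684-65982314 on the minus strand. These 2 genes were the closest to equality among the members.

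YWHAZ, the 14-3-3 adaptor, stood at 334 FPKM in shGFP and 350.4 FPKM in NEIL3 KD, a plain ratio of 1.0502 (chr8:100916525-100953388, minus strand). IPO8, the import carrier, stood at 20.1 and 21.9 FPKM, a plain ratio of 1.09 (chr12:30628988-30695986, minus strand). TBP, the TATA-binding protein, stood at 13.9 and 11.8 FPKM, a plain ratio of 0.848 (chr6:170554302-170572870, plus strand). It was the lowest ratio among the 7 members at 1 FPKM or more, at percentile 19.2 of all symbols. The levels of these 7 ran in the same order in both libraries, from PPIA through YWHAZ, PPIB, HPRT1, GUSB and IPO8 to TBP; without replicates it is not known which neighbours in that order differ beyond their spread.

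**Figure D1:**
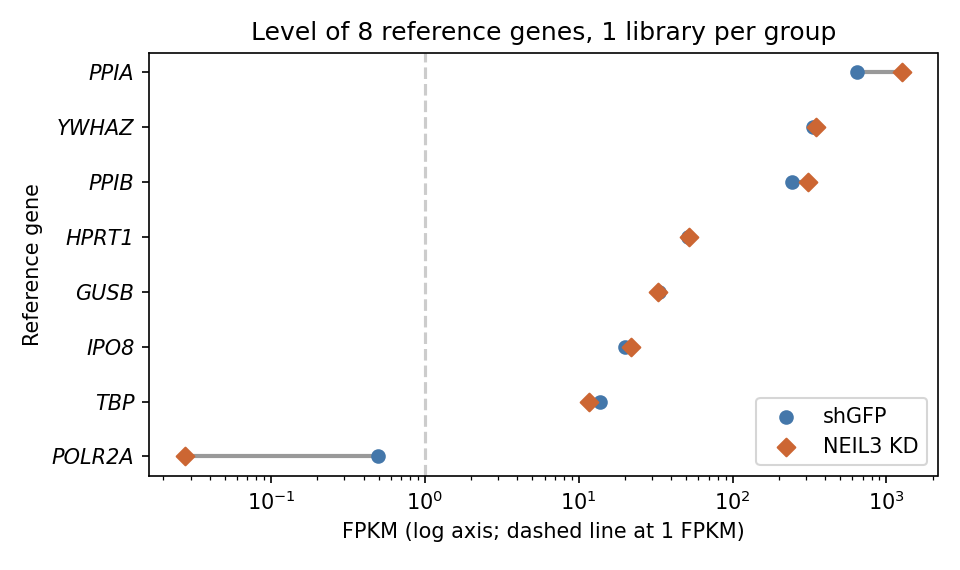
FPKM (log axis) of the 8 members in the shGFP library (circles) and the NEIL3 KD library (diamonds), joined by a line, 1 library per group and so no error bars. PPIA moves from 640.6 to 1256 FPKM, 6 members nearly overlie, and POLR2A lies below 1 FPKM in both libraries.

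By count, 1 of the 7 members at 1 FPKM or more lay 1.5-fold or more higher in the knockdown library and 0 lay that far lower. POLR2A, under that minimum, was not counted; by its plain ratio it would be lower. Of all 14209 symbols, 4.55% lay 1.5-fold or more higher in NEIL3 KD and 4.48% lay that far lower. Among the 285 symbols with a mean of 200 FPKM or more, the level class of PPIA, YWHAZ and PPIB, the shares were 4.56% and 1.75%. Since PPIA was chosen for its ratio, nothing is read from the members' count against these shares. The median log2 ratio was 0.07 over the 7 members at 1 FPKM or more and 0.02 over all symbols. Of all log2 ratios, the middle 95% fell between -0.74 and 0.74, so that PPIA lay outside it and the other members inside it on this scale. A plain ratio within 5% of 1 was found for 2 members, HPRT1 and GUSB, and for 2704 symbols in all (19.0%); YWHAZ, at 1.0502, lay just beyond.

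**Figure D2:**
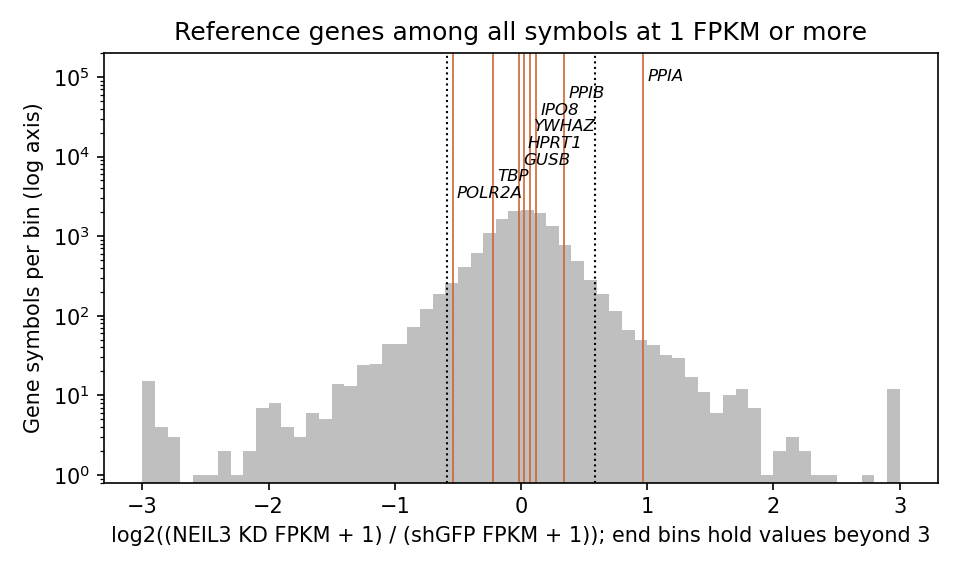
Number of symbols (log axis) per bin of the log2(FPKM + 1) ratio, over 14209 symbols, with an orange line for each member and dotted lines at 1.5-fold. PPIA, at 0.97, lies beyond the upper dotted line, while 6 members lie between -0.22 and 0.34; POLR2A (-0.54), under 1 FPKM in both libraries, is drawn but is not among the binned symbols.

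PPIA has many processed copies in the genome, inserted by reverse transcription of its messenger RNA. A search by name found 34 rows of PPIA pseudogenes or PPIA-like genes. Of these, 17 are at the lowest listed value in both libraries and 5 reach 1 FPKM. Bases 243 to 362 of the coding sequence are shown for PPIA and those 5. They are counted from the A of the start codon in transcript ENST00000468812.5 of GENCODE 29. The stretch was chosen to hold both differences of PPIAP22, so it does not stand for the other copies. Identity over all aligned coding bases is given after the sequences. On GRCh38 this stretch lies at chr7:44799755-44799874 on the plus strand, within exon 4. Capitals mark bases that differ from PPIA, and the pseudogenes are given 5′ to 3′ on their own strand.
PPIA: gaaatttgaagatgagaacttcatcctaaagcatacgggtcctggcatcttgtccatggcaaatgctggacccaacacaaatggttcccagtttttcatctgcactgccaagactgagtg
PPIAP22: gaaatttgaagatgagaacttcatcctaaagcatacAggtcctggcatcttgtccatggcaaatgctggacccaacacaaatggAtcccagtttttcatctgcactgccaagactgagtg
PPIAP31: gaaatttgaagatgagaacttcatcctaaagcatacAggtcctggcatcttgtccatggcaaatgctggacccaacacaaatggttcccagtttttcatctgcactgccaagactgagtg
PPIAP29: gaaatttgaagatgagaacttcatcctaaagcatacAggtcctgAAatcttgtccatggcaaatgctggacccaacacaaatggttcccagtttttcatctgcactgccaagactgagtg
PPIAP11: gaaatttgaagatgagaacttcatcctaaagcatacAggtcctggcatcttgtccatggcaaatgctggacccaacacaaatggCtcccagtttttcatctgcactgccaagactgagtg
PPIAP19: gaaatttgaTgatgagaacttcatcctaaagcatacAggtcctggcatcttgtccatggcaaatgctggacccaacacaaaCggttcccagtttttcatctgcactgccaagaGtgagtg

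The 5 copies differ from PPIA at 1 to 4 of these 120 bases. Over the bases that align to the 498 coding bases of PPIA (stop codon included), PPIAP22 (chr21:18857779-18858276, plus strand) was 99.6% identical to PPIA, with 2 mismatches, both in the stretch shown. PPIAP31 (chr10:32188323-32188817, minus strand) was 98.2% identical, PPIAP11 (chr5:82009602-82010094, minus strand) 97.4%, PPIAP29 (chr6:24976419-24976982, plus strand) 97.2% and PPIAP19 (chr10:114690143-114690634, minus strand) 93.3%. By gene identifier, 94 PPIA copy symbols of GENCODE 29 have a row in the table, more than the 34 found by name. Those other than the 5 had a median identity of 90.0% and at most 94.7%, and all were under 1 FPKM in both libraries. The PPIA transcript is 2238 bases long, and its bases outside the 498 coding bases were not compared, so the next share is not one of all PPIA fragments. Of 449 coding stretches of 50 bases, 399 (88.9%) recur letter for letter in at least 1 of the 5 copies. PPIAP22 alone holds 351 of them. A read that lies wholly within such a stretch fits either gene, so the levels of PPIA and its copies may carry an error that FPKM does not show. The length of 50 bases was chosen for this comparison and no reads were examined. Whether fragments were misassigned, and how many, was therefore not tested.

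Most of the measured copies were also higher in NEIL3 KD. PPIAP22 stood at 77.9 FPKM in shGFP and 126 FPKM in NEIL3 KD, a plain ratio of 1.61. PPIAP31 stood at 14.3 and 27.8 FPKM, a plain ratio of 1.95. PPIAP19 stood at 2.93 and 5.59 FPKM (1.91) and PPIAP29 at 3.77 and 5.62 FPKM (1.49). PPIAP11, at 1.27 and 1.06 FPKM, was the exception, with a plain ratio of 0.839. In all, 4 of the 5 copies thus had ratios between 1.49 and 1.95, and whether their values are transcripts of their own or fragments of PPIA was not tested.

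The 34 rows found by name summed to 102 FPKM in shGFP and 167 FPKM in NEIL3 KD, which is 15.9% and 13.3% of the level of PPIA. Copies that the name search missed, all under 1 FPKM, are not in these sums. PPIA with these 34 rows added stood at 742 and 1423 FPKM, a ratio of 1.92 against 1.96 for PPIA alone. Because each FPKM is scaled to its own transcript length, these sums are not sums of fragments.

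**Figure D3:**
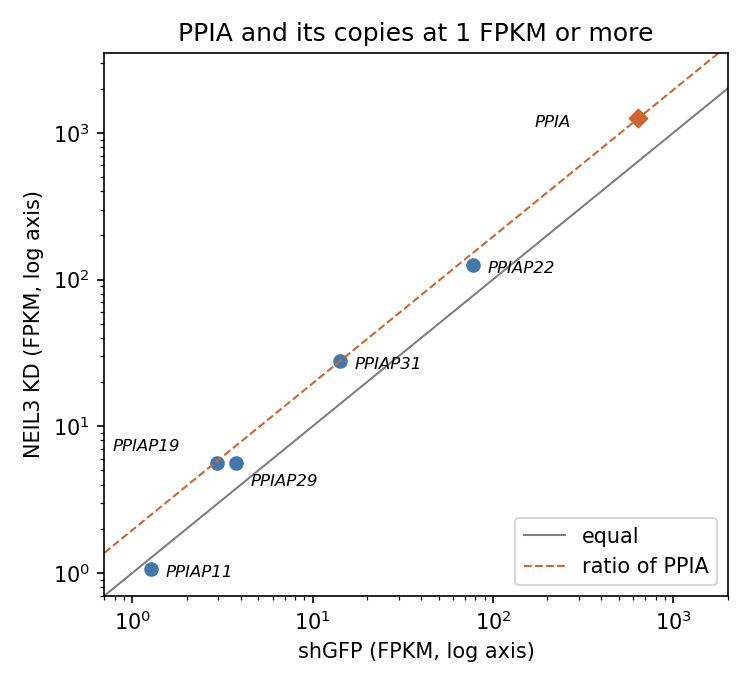
FPKM in the NEIL3 KD library against FPKM in the shGFP library (both log axes) for PPIA (diamond) and its 5 copies at 1 FPKM or more (circles), 1 library per group. The solid line marks equal levels and the dashed line the ratio of PPIA, 1.96; PPIAP31 and PPIAP19 lie nearly on the dashed line and PPIAP11 falls below the solid line.

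By name, copies of the other members were fewer or weaker. A search by name did not find all copies of PPIA, and no sequences were compared for the other members, so further copies may be missed. The 8 YWHAZ pseudogene rows summed to 12.7 FPKM in shGFP and 12.4 FPKM in NEIL3 KD, 3.81% and 3.53% of the level of YWHAZ. The 11 GUSB pseudogene rows summed to 5.74 and 5.55 FPKM, or 17.2% and 16.9% of GUSB, nearly all of it from GUSBP11, at 5.13 and 4.78 FPKM. IPO8P1 stood at 1.10 and 0.784 FPKM beside IPO8. The 3 HPRT1 pseudogene rows were at the lowest listed value in both libraries, and no row carries a pseudogene name of TBP, PPIB or POLR2A. With the copies added, the ratio was 1.0474 for YWHAZ, 0.984 for GUSB and 1.07 for IPO8.

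POLR2A, the catalytic subunit of RNA polymerase II, did not behave as a reference gene in this table. It was listed at 0.496 FPKM in shGFP and 0.0275 FPKM in NEIL3 KD, under 1 FPKM in both. Its plain ratio was 0.0555, and its log2 ratio was -0.54 with a pseudocount of 1 FPKM. The 11 other subunits of the same enzyme ran from 11.9 to 87.9 FPKM in the control, with a median of 29.8, and from 16.6 to 87.6 FPKM in NEIL3 KD, with a median of 32.8. POLR2B, which forms the active centre together with POLR2A, stood at 60.7 and 62.4 FPKM, a plain ratio of 1.03. Cells cannot make messenger RNA without POLR2A, so its listed level is doubtful, and ratios that involve it below describe the listed values only. The authors' deposited table gives POLR2A a p of 0.0442 and a q of 0.728.

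POLR2A (ENSG00000181222) lies at chr17:7484366-7514616 on the plus strand. The nearest genes at 1 FPKM or more were KCTD11 before it (chr17:7351889-7354944), at 3.42 FPKM in shGFP and 3.73 FPKM in NEIL3 KD, and TNFSF12 after it (chr17:7548891-7557890), at 2.25 and 1.10 FPKM. Between them lie 20 rows, 15 of them protein-coding, all under 1 FPKM by the way the bounds were set. Of these 15, 9 were at the lowest listed value in both libraries and 13 in the knockdown library. Besides POLR2A, the highest level among the 20 rows in the control was 0.123 FPKM, for TMEM256, which was at the lowest listed value in the knockdown library. ZBTB4, a zinc finger repressor that starts next to POLR2A, was at the lowest listed value in both.

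Active genes lay on both sides of this run, among others at low levels. Before it, EIF5A, a translation factor, stood at 134 FPKM in shGFP and 171 FPKM in NEIL3 KD, and GPS2 at 22.6 and 26.2 FPKM. After it, SENP3 stood at 27.1 and 28.5 FPKM and EIF4A1, a helicase of translation initiation, at 455 and 523 FPKM. Of all 19828 protein-coding rows, 41.0% were under 1 FPKM in both libraries. The run was sought after the value of POLR2A had been seen, and its cause was not tested.

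**Figure D4:**
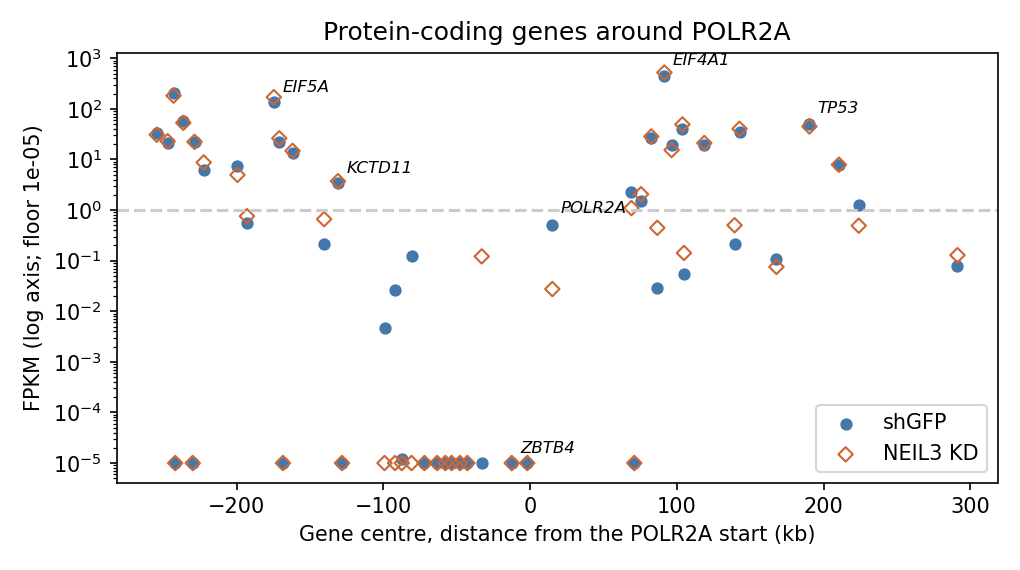
FPKM (log axis, lowest listed value 1e-05) of protein-coding genes against the distance of their centre from the start of POLR2A in kb, with circles for shGFP and open diamonds for NEIL3 KD, 1 library per group. Points between KCTD11 and TNFSF12 lie under 1 FPKM in both libraries, most of them at 1e-05, while EIF5A and EIF4A1 on either side exceed 100 FPKM.

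The relatives of each member give the level of the surrounding pathway. Counts in these lists, and in the reference gene lists after them, stand beside the shares over all 14209 symbols. Those were 4.55% at 1.5-fold or more higher and 4.48% that far lower. Whether any list differs from these shares was not tested. In the cyclophilin family all 17 genes reached 1 FPKM, and PPIA was at least 1.5-fold higher while 0 were lower and 16 lay within 1.5-fold. The median log2 ratio of the family was 0.07, against 0.02 over all symbols. PPIE, a cyclophilin of the spliceosome, stood at 10.3 FPKM in shGFP and 13.4 FPKM in NEIL3 KD, a plain ratio of 1.30. PPID, a partner of the chaperone HSP90, stood at 72.5 and 86.9 FPKM, and PPIF, the mitochondrial cyclophilin, at 44.4 and 54.2 FPKM. The other prolyl isomerases, the FKBP and parvulin genes, had a median of 0.03 over 16 genes with 0 apart by 1.5-fold. FKBP2, of the endoplasmic reticulum, stood at 24.5 and 33.9 FPKM and FKBP1A, the target of the drug tacrolimus, at 177 and 193 FPKM.

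Of PPIB and its collagen-modifying partners, 13 genes were measured, PPIB included, and 0 were apart by 1.5-fold, with a median of -0.03. P3H1 and CRTAP, which form a complex with PPIB on procollagen, stood at 27.6 and 24.99 FPKM and at 63.2 and 59.0 FPKM in shGFP and NEIL3 KD. SERPINH1, a collagen chaperone, stood at 54.4 and 36.9 FPKM, a plain ratio of 0.679. P4HB, protein disulfide isomerase, stood at 244 and 291 FPKM, a plain ratio of 1.19 beside 1.27 for PPIB.

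Of the 7 genes of the 14-3-3 family, 1 lay 1.5-fold or more higher and 1 that far lower. SFN, the epithelial form, stood at 5.12 FPKM in shGFP and 8.43 FPKM in NEIL3 KD. YWHAE was listed at 1.97 and 0.613 FPKM, far below its relatives YWHAB (127 and 140 FPKM) and YWHAQ (117 and 128 FPKM). Its level is therefore doubtful too, and its ratio rests on values near 1 FPKM. YWHAZ was the most abundant of the family in both libraries. In the importin and transportin family, 18 genes were measured and 0 were apart by 1.5-fold, with a median of -0.02. IPO4 stood at 32.4 and 42.8 FPKM and KPNB1, importin beta, at 145 and 136 FPKM.

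TBP and the TFIID subunits had a median log2 ratio of -0.06 over 16 measured genes, of which 13 were below 0 and 0 apart by 1.5-fold. For comparison, 46.9% of 14121 symbols had a plain ratio below 1. These are the symbols at 1 FPKM or more in either library and above the lowest listed value in both. Such counts of direction were not tested. TAF5 stood at 9.75 FPKM in shGFP and 7.86 FPKM in NEIL3 KD, TAF13 at 15.6 and 20.1 FPKM, and TBPL1, a relative of TBP, at 30.6 and 32.0 FPKM. TAF9 was at the lowest listed value in both. The 11 measured RNA polymerase II subunits had a median of 0.20, with 10 above 0. POLR2L and POLR2F, small subunits shared with RNA polymerases I and III, were at least 1.5-fold higher, at 15.9 and 28.1 FPKM and at 11.9 and 18.8 FPKM.

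HPRT1 and the purine enzymes around it had a median of -0.07 over 17 genes, with 1 gene 1.5-fold or more higher and 0 lower. The higher gene was GDA, guanine deaminase, which stood at 9.26 FPKM in shGFP and 30.04 FPKM in NEIL3 KD, a plain ratio of 3.24. APRT, which salvages adenine, stood at 43.5 and 55.1 FPKM, and IMPDH2, of guanine nucleotide synthesis, at 226 and 195 FPKM. GUSB and the lysosomal hydrolases around it had a median of -0.16 over 20 genes, with 13 below 0, beside 46.9% of the 14121 symbols. ARSB, a sulfatase that acts on dermatan and chondroitin sulfate, was at least 1.5-fold higher at 12.8 and 22.6 FPKM, and 0 were lower. MAN2B1, the lysosomal alpha-mannosidase, stood at 29.5 and 22.4 FPKM and HEXA, a hexosaminidase chain, at 131 and 134 FPKM.

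A wider set of 36 other common reference genes had 35 measured, with a median log2 ratio of 0.02. Of these, 34 lay within 1.5-fold, 0 were higher and 1 was lower. That gene was RPS18, listed at 6.73 FPKM in shGFP and at the lowest value in the knockdown library; its level is doubtful for a ribosomal protein gene, and no fold is given. GAPDH stood at 854 and 966 FPKM, a plain ratio of 1.13, and ACTB at 792 and 1031 FPKM, a plain ratio of 1.30. The 5 nearest to equality were TFRC, the transferrin receptor (1.01), the ubiquitin gene UBB (1.01), B2M (0.987), SDHA of mitochondrial complex II (1.01) and the ribosomal protein gene RPL19 (1.01). The glycolytic gene LDHA, at 463 and 629 FPKM, had the highest ratio of the set, 1.36, below the 1.96 of PPIA. TUBB, a tubulin gene, was at the lowest listed value in both libraries.

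Among 11 genes picked for even expression in RNA sequencing of many tissues, 0 were apart by 1.5-fold and the median was 0.19. Of these 11 genes, 10 lay above 0, while 46.9% of the 14121 symbols lay below it. REEP5 stood at 18.6 and 23.6 FPKM, SNRPD3 at 72.6 and 89.9 FPKM and RAB7A at 135 and 122 FPKM. Over all lists together, 172 measured genes that are no members had a median of 0.02. Of these, 5 were 1.5-fold or more higher (2.91%) and 2 that far lower (1.16%), beside 4.55% and 4.48% of all 14209 symbols. The lower genes were YWHAE, at 1.97 FPKM in shGFP and 0.613 FPKM in NEIL3 KD, and RPS18, so that count rests on doubtful low levels only.

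The protein-coding genes whose levels in both libraries were nearest to those of PPIA, by distance on the log2(FPKM + 1) scale over these 2 libraries, were HSPA8, A2M, ACTB, EEF1G and GAPDH. HSPA8, a heat shock cognate chaperone, matched PPIA in the control at 640.8 FPKM and stood at 966 FPKM in NEIL3 KD, a plain ratio of 1.51. A2M, a plasma protein that traps proteases, was listed at 664 and 961 FPKM, a plain ratio of 1.45.

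What the choice of a reference gene does to a relative measurement follows by division. NEIL3 was 1.88-fold lower in the knockdown library as deposited. Divided by PPIA it was 3.69-fold lower, by HPRT1 1.91-fold, by GUSB 1.86-fold, by YWHAZ 1.97-fold, by IPO8 2.05-fold, by PPIB 2.39-fold and by TBP 1.60-fold. Divided by the geometric mean of HPRT1, TBP, GUSB, YWHAZ, IPO8 and PPIB it was 1.95-fold lower. Division by the doubtful listed level of POLR2A gave a relative level of 9.58, with the direction turned. GAPDH and ACTB gave 2.13-fold and 2.45-fold.

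Since division by PPIA scales all genes alike, any gene with a ratio between 1 and that of PPIA falls below 1. CDH1, which encodes E-cadherin, had a ratio of 1.74 as deposited and of 1.59 to 2.05 relative to IPO8, YWHAZ, HPRT1, GUSB or TBP. Relative to PPIB it was 1.37, and relative to PPIA 0.887. SNAI1, a repressor of CDH1, had a ratio of 0.529 as deposited, 0.521 relative to HPRT1 and 0.270 relative to PPIA. These are divisions of the same library values and not separate measurements.

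**Figure D5:**
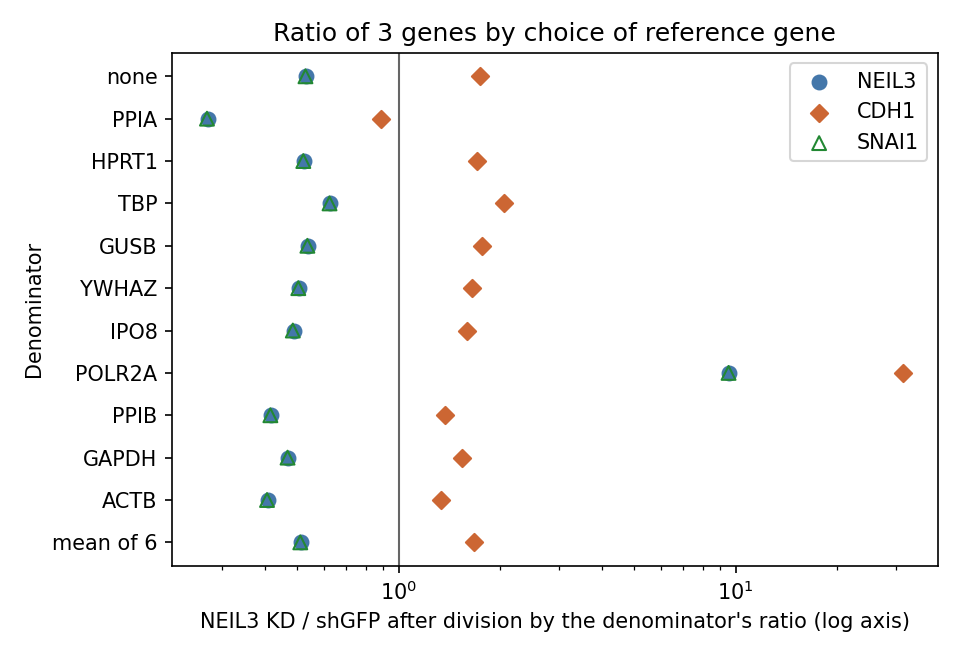
Ratio of NEIL3 KD to shGFP for NEIL3 (circles), CDH1 (diamonds) and SNAI1 (open triangles, over the circles) after division by the ratio of each denominator (log axis), with the geometric mean of 6 members in the lowest line. NEIL3 lies between 0.409 and 0.627 for all denominators other than PPIA (0.271) and POLR2A (9.58), and CDH1 falls under 1 only with PPIA.

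The same division applied to the 14121 symbols at 1 FPKM or more in either library and above the lowest listed value in both shows the size of the shift. As deposited, 6.88% had a plain ratio of 1.5 or more and 7.23% lay that far lower. Relative to HPRT1 the shares were 6.49% and 7.75%, and relative to GUSB 7.30% and 6.96%. Relative to TBP, 15.2% were higher and 4.09% lower. Relative to PPIB, 2.96% were higher and 20.7% lower. Relative to PPIA, 0.857% were higher and 86.8% lower.

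Between members, the plain ratios of PPIA and each of the 6 others at 1 FPKM or more differed by 1.54-fold (PPIB) to 2.31-fold (TBP), all 6 pairs at least 1.5-fold apart. Among the 15 pairs without PPIA and POLR2A the difference ran from 1.03-fold (HPRT1 and GUSB) to 1.498-fold (PPIB and TBP), with a median of 1.17-fold, and 0 reached 1.5-fold. Of the 21 pairs without POLR2A, 6 were at least 1.5-fold apart, and with the doubtful level of POLR2A 13 of 28. Since PPIA was chosen for its ratio, and the other members were added with theirs known, nothing is read from these counts.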

How the data were processed

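Total RNA of 1 shGFP and 1 NEIL3 KD library was sequenced from a strand-specific kit, per the labels' protocols. Per the submitters' processing notes reads were handled with Cufflinks 2.2.1 and Cuffdiff, HISAT2 2.1.0, Trimmomatic 0.36, SAMtools 1.2 and bcl2fastq, on GRCh38.p10. For the annotation release and the strand setting, nothing is stated in the sources used here. Deposited by the authors were FPKM values per gene, with undetected genes at 1e-05, and their own ratio of knockdown over control, log2 ratio, p-value and q-value, per the file headers. Fragment totals are unknown, so no counting interval is given, and with FPKM and 1 library per group no test was run.

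The row with the highest mean FPKM was kept per symbol. Log2 ratios used a pseudocount of 1 FPKM, which understates changes of low genes; plain ratios used none. Differences of 1.5-fold were counted over symbols at 1 FPKM or more in either library. The members and lists were chosen with earlier results of these data known. The text names the members, NEIL3, list genes 1.5-fold apart or with the largest ratios, the 5 other reference genes nearest to equality with GAPDH and ACTB, PPIA copies at 1 FPKM or more, overlapping rows, and the 5 genes nearest to PPIA. Other family and marker genes, the mitochondrial example, the genes around POLR2A, and CDH1 and SNAI1 as examples were named after their values were seen. All 8 members had the same position in GENCODE 29 as in the table. Sequences come from GENCODE 29 transcripts (GRCh38) and were compared by local alignment with Biopython 1.88. Counting was tested on simulated ratios. Alternatives were pseudocounts of 0.1 and 5 FPKM, plain ratios, centring on the median, rescaling without mitochondrial genes, summed rows, other FPKM minimums and a 2-fold size; a pseudocount of 1 FPKM for relative levels was added after seeing the data.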

Additional observations from a re-analysis of the deposited data

How the results depend on the processing

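No paired analysis was possible because each group has 1 library, and no replicate could be left out. The log2 ratio of PPIA ran from 0.94 to 0.97 over the alternatives run, and those of the 6 members other than PPIA and POLR2A from -0.24 to 0.35, on the same side of 1.5-fold throughout. HPRT1 changed sign, from 0.02 to -0.01, after rescaling without mitochondrial genes, which moved the median of all symbols by -0.02. At 2-fold, 0 members were higher, since PPIA lies just under that size, and of the list genes 1 was higher and 1 lower.

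POLR2A depended on the pseudocount, with a log2 ratio of -2.22 at 0.1 FPKM and -4.17 with none. Counted over all 8 members without the FPKM minimum, 1 was then lower, against 0 at a pseudocount of 1 FPKM. Under the minimum POLR2A is not counted. Its levels in both libraries are near the bottom of the scale. A pseudocount of 5 FPKM left 3 list genes higher and 1 lower, against 5 and 2, and an FPKM minimum of 5 left 1 lower. The medians of the 11 lists stayed within 1.5-fold in all 88 recomputations.

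A pseudocount of 5 FPKM shrinks NEIL3, at 5.34 and 2.84 FPKM, more than its denominators. Its relative level was then 0.748 with HPRT1, 0.853 with TBP, 0.767 with GUSB, 0.722 with YWHAZ and 0.707 with IPO8, and 0.829 with POLR2A, which turned the direction; 7 of the 28 pairs of members remained at least 1.5-fold apart. At 1 FPKM it was 0.705 with TBP and 0.882 with POLR2A. Depth is not known, so the counting error of low values such as POLR2A and PPIAP11 cannot be given.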

Other observations

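Of the 8 members and 181 other list genes, 10 were under 1 FPKM in both libraries. Some of these are genes that dividing cells use, beside POLR2A. TUBB and TAF9 were at the lowest listed value in both libraries. Also under 1 FPKM were FKBP6, FKBPL, AIPL1, RANBP17, KPNA7 and P3H2. PSMC4, a proteasome ATPase, was listed at 3.06 and 2.33 FPKM, and YWHAE at 1.97 and 0.613 FPKM. The cause of these low values was not tested.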
